A study of Homo sapiens with 19 samples.

Results

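The genes of oxidative phosphorylation were followed through an epithelial to mesenchymal transition (EMT) and through depletion of the RNA-binding protein AKAP8. Members were chosen by name: every gene whose symbol begins with NDUF, UQCR, COX followed by a digit, or ATP5 and that has a skipped exon (SE) event in the deposited splicing tables, with ATP5C1 left out. This gave 82 of the 11701 genes with an SE event. By name and known role they divide into 33 complex I genes, 7 complex I assembly factors (NDUFAF), 6 complex III genes (UQCR), 8 complex IV genes, 9 complex IV assembly factors (COX10 to COX20) and 13 ATP synthase genes. The 6 others are the NDUFA4 paralog NDUFA4L2, ATP5S and ATP5SL, the readthrough genes ATP5J2-PTCD1 and NDUFC2-KCTD14, and the antisense RNA NDUFV2-AS1. ATP5SL is called DMAC2 in current annotation, and DMAC2 is known as a complex I assembly factor, so its older name does not make it a subunit of ATP synthase.

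The cells were HMLE/Twist-ER, human mammary epithelial cells immortalised with TERT that carry the transcription factor Twist fused to the estrogen receptor, so that tamoxifen switches Twist on. Untreated cells are called EPI, and cells kept in 20 nM tamoxifen until their shape was mesenchymal are called MES. RNA came from 3 cultures of EPI with a non-specific shRNA (EPI control), 3 of EPI with an AKAP8 shRNA (EPI knockdown), 3 of MES with the non-specific shRNA (MES control) and 2 of MES with the AKAP8 shRNA (MES knockdown). Every group carries the Twist-ER fusion and a stable lentiviral shRNA, so the MES cells differ from EPI by tamoxifen itself as well as by Twist activity. AKAP8 eCLIP, which maps where a protein is crosslinked to RNA, was done in EPI and in MES cells without knockdown.

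Oxidative phosphorylation makes ATP in the inner mitochondrial membrane. Complex I takes electrons from NADH, complex III passes them to cytochrome c, complex IV gives them to oxygen, and the proton gradient that these pumps build drives ATP synthase. All genes measured here are nuclear. The core subunits that mitochondrial DNA encodes are not among them.

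Gene levels were read from splice junctions: reads that join exons in the SE events of a gene (with or without the exon, in events listed for all 3 comparisons) were added up and scaled by library. These scaled junction reads follow transcript abundance but also change when splicing changes, and they are not comparable between genes. Reads of near-identical copies are dropped by unique mapping, and a lower value can come from fewer cells or from less RNA per cell, which bulk libraries cannot tell apart. The p-values measure the spread between these libraries, since the labels do not say how the cultures were separated. A value could be made for 74 of the 82 members, and 72 passed the filter on low reads and were tested, among 9016 genes tested. Each library held 31258177 to 40852217 junction reads of SE events, of which 0.981% to 1.42% belonged to members. Libraries are numbered here by their place in the deposited lists. AKAP8 itself had 244 to 310 scaled reads in EPI control against 98.8 to 125 in EPI knockdown, and 196 to 382 in MES control against 108 and 122 in MES knockdown. Its log2 fold change was -1.20 in EPI (adjusted p = 0.0664, limma) and -1.20 in MES (adjusted p = 0.0322, limma). Of the epithelial markers 5 of 10 had a value and all 5 were lower in MES control than in EPI control, with CDH1 at a log2 fold change of -4.34 (limma). Of the mesenchymal markers 9 of 10 had a value and all 9 were higher, with VIM at 1.77. None of 5 markers of blood and vessel cells had a value.

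The splicing results turned on 4 exons, which are shown here first. Sequences are from GRCh37, 5′ to 3′ on the strand of the gene, with the exon in capitals and the ends of the neighbouring introns in lower case. In ATP5SL it is exon 5 of 6 in the longest coding transcript (163 nt, minus strand), shown with its introns as chr19:41939167-41939364.
ATP5SL: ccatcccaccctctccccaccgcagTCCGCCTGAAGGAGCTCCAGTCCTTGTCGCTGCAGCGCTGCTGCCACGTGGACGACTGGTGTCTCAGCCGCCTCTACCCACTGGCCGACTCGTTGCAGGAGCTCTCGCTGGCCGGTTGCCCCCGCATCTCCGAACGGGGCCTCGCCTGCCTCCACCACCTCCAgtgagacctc
In COX20, a factor that helps assemble complex IV, it is exon 3 of 5 (115 nt, plus strand), shown as chr1:245005221-245005370.
COX20: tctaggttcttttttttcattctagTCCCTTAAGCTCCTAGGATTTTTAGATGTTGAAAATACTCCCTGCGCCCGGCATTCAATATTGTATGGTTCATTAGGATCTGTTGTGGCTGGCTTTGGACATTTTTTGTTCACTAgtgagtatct
In NDUFS1, the largest subunit of complex I, it is exon 3 of 19 (92 nt, minus strand), shown as chr2:207017133-207017259.
NDUFS1: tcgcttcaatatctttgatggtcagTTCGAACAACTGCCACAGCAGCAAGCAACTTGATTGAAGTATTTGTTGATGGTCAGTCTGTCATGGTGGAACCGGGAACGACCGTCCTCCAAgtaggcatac
In NDUFV3, an accessory subunit of complex I, it is exon 3 of 4 (plus strand). At 1095 nt it is too long to print whole, so its 5′ end (chr21:44323267-44323351) and its 3′ end (chr21:44324327-44324396) are given.
NDUFV3 5′ end: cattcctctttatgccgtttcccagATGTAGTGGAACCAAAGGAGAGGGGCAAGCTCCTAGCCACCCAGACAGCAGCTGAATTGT
NDUFV3 3′ end: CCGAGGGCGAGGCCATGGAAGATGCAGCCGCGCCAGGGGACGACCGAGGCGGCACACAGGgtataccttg

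All 4 exons are coding in the annotation and have AG before and GT after them. The NDUFV3 exon holds 365 whole codons, so inclusion makes a longer protein in the same frame. The lengths of the other 3 exons are not multiples of 3, so skipping them shifts the reading frame. The GC content was 68.1% in the ATP5SL exon and 40.9% in the COX20 exon. Gencode lists 4 ATP5SL transcripts with the exon and 3 that join its neighbours directly, and all 3 of these are labelled as protein coding. For COX20 there are 3 with it and 1 that skips it, and that transcript is not labelled as protein coding. NDUFS1 and NDUFV3 have 1 skipping transcript each, both labelled as protein coding.

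Member genes varied together from library to library. In the second EPI knockdown library 59 of the 72 members lay above the mean of their group, with a median of 0.29 on the log2 scale, while in the third only 11 did. The second EPI control library had 58 members above the mean of its group and the third had 12. Among the MES knockdown libraries 59 were above the mean in the first and 13 in the second. Complex IV showed the widest swing, with a median of 0.59 above the mean of all 11 libraries in the second EPI knockdown library and -0.42 in the second MES knockdown library. The cause of this spread was not tested, and it is wider than several of the differences between groups given below.

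**Figure D1:**
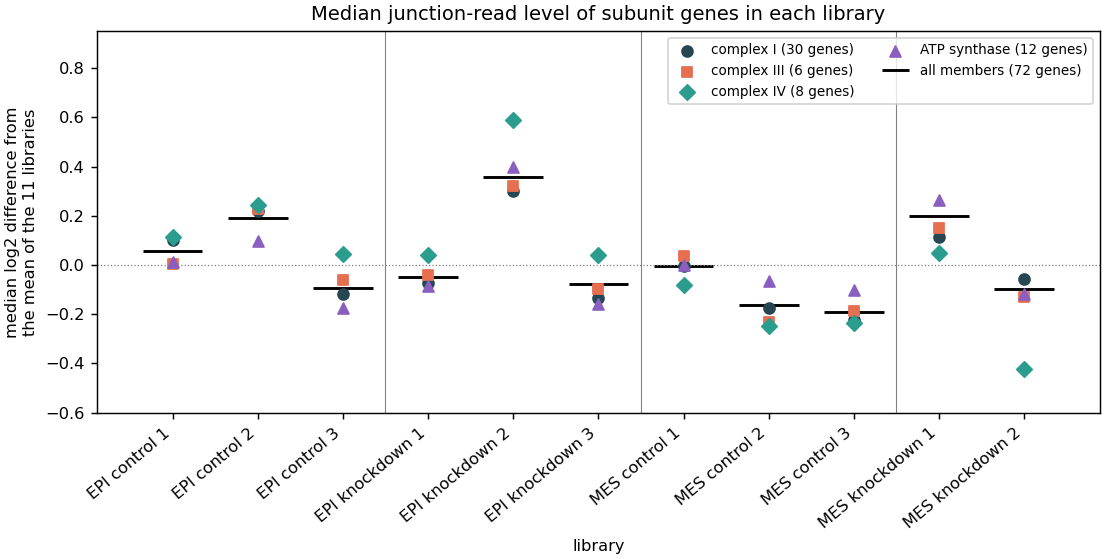
Each point is the median, over the genes of a complex, of log2(scaled junction reads + 1) minus the mean of the 11 libraries, by library. The horizontal lines give the median of all 72 members. The second EPI knockdown library stands highest at 0.36 and the third MES control library lowest at -0.19.

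In MES control against EPI control, which asks what differs between the mesenchymal and the epithelial state, 55 of the 72 members had negative values. The median log2 fold change was -0.17 over the members against 0.01 over all genes. It was -0.10 without the second EPI control library and -0.27 without the third. The pooled SD of the library medians was 0.12, and the third EPI control library, at -0.09, lay below the first MES control library, at -0.003. With limma and an adjusted p under 0.05, 4 members were higher and 10 lower. In the background 11.6% of all genes tested were higher and 12.3% lower, beside 4 and 10 of the 72 members. The member split was 2 higher and 18 lower with total junction reads as the scale, beside 745 and 1475 of 9018 genes. With only the libraries of these groups fitted it was 4 higher and 17 lower of 71 members, beside 1348 and 1419 of 8961 genes. The fit used throughout called 1043 and 1112 of 9016 genes, so the calls over all genes shifted with these settings too. Of the 14 members called, COX17 and COX6B2 differed by more than 1 on the log2 scale. NDUFS3 had -1.09 and did not pass (adjusted p = 0.0634, limma). Complex IV had negative values in 8 of 8 genes (median -0.29), complex III in 5 of 6 (median -0.24), complex I in 24 of 30 (median -0.16) and ATP synthase in 7 of 12 (median -0.03). NDUFA4, which had 0.32, was counted under complex I by its name, though it is now placed with complex IV. COX6B2, among the 8 complex IV genes, had very few reads. When total junction reads set the scale, the median of all genes moved to -0.10 and that of the members to -0.29, which leaves the members 0.18 below all genes on either scale.

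COX17, the copper chaperone that delivers copper to complex IV, fell furthest among the well-covered genes. Its scaled reads were 1031, 1040.01 and 775 in EPI control and 399, 333 and 377 in MES control. The groups were far apart, with a log2 fold change of -1.35 ± 0.19 (SE) and an adjusted p of 0.00019 (limma). The EPI knockdown libraries had 874, 931 and 762 and the MES knockdown libraries 528 and 374. Both knockdown groups thus lay on the side of their own state.

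NDUFAB1, the mitochondrial acyl carrier protein that also sits in complex I, had 4266, 4522 and 3684 scaled reads in EPI control and 2422, 2319 and 2272 in MES control. The log2 fold change was -0.83 ± 0.15 (SE, adjusted p = 0.0012, limma). Its MES knockdown libraries, at 3280.4 and 3191, lay above every MES control library. That gain had a log2 fold change of 0.47 and did not pass the test (adjusted p = 0.114, limma). Such separation was not particular to NDUFAB1. Among other members that did not pass, ATP5H, COX14 and COX4I1 also lay wholly above MES control, and COX7B and NDUFS1 wholly below. The fall and the gain are measured against the same MES control libraries, so they are not independent. The EPI knockdown libraries had 4241, 4770 and 3483 scaled reads.

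NDUFAF2, an assembly factor of complex I, showed a like arrangement. It had 3705, 3776 and 3462 scaled reads in EPI control, 2223, 2289 and 2657 in MES control, and 3631 and 3412 in MES knockdown. The fall in MES control was -0.61 ± 0.14 (log2, SE, adjusted p = 0.0058, limma). The value for MES knockdown against MES control was 0.56 (adjusted p = 0.0571, limma), just outside the threshold. This value and the fall also share the MES control libraries and are not independent. The EPI knockdown libraries had 3386, 4212 and 3440 scaled reads. The test of whether the knockdown effect differed between MES and EPI gave 0.56 for NDUFAF2, with an adjusted p of 0.678 (limma).

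NDUFS4, an accessory subunit of complex I whose loss is a known cause of Leigh syndrome, was lower in each of the 3 comparisons. It had 4004, 3957 and 4473 scaled reads in EPI control, 2626, 2593 and 3281 in EPI knockdown, 2841, 2463 and 2910.03 in MES control, and 1637 and 1571 in MES knockdown. No group overlapped the group it was compared with. The log2 fold change was -0.60 ± 0.14 in MES control against EPI control (adjusted p = 0.0077), -0.77 ± 0.16 in MES knockdown (adjusted p = 0.0192) and -0.55 ± 0.14 in EPI knockdown (adjusted p = 0.145), each with its SE from limma. The first passed with each library left out in turn. The second passed only when the second MES control was the library left out, with adjusted p between 0.012 and 0.124 over all settings. The comparison of the states shares its EPI and MES control libraries with the knockdown comparisons.

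Of the other genes that fell in MES, UQCRC2, a core subunit of complex III, had a log2 fold change of -0.57 (adjusted p = 0.0101). NDUFB4 and NDUFS6, accessory subunits of complex I, had -0.59 (adjusted p = 0.0246) and -0.64 (adjusted p = 0.0359). COX7C, a small subunit of complex IV, had -0.48 (adjusted p = 0.0393). All these values are from limma. NDUFC1 of complex I, named after its values were seen, had -0.54 with an adjusted p of 0.0465 (limma), and its groups overlapped.

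NDUFAF6, an assembly factor of complex I, rose most clearly in MES. It had 541, 518 and 550.06 scaled reads in EPI control and 1059.5, 1024 and 874 in MES control. The log2 fold change was 0.87 ± 0.15 (SE, adjusted p = 0.0012, limma). EPI knockdown (507 to 634) and MES knockdown (942 and 1070.5) stood near the control group of the same state.

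UQCRB, the ubiquinone-binding subunit of complex III, had 7037, 6048 and 7625 scaled reads in EPI control and 11454, 9452 and 11195 in MES control. Its log2 fold change of 0.63 (adjusted p = 0.0175, limma) stood against that of UQCRC2 in the same complex. COX20 had 1089, 1021 and 860.2 in EPI control and 1879.9, 1541 and 1304 in MES control (log2 fold change 0.66, adjusted p = 0.032, limma). With total junction reads as the scale, UQCRB and COX20 no longer passed the test.

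The paralogs of complex IV and ATP synthase showed which copy was measurable. COX6B2, the testis form of COX6B1, had only 15.2, 19.7 and 41.4 scaled reads in EPI control and 0, 2.04 and 2.11 in MES control. Its fitted log2 fold change (-3.52, adjusted p = 0.0024, limma) depends on the pseudocount and shrinks to -2.18 with a pseudocount of 5. COX6B1, the form of most tissues, had 7023 to 8610.4 in EPI control and 6996 to 7927 in MES control, with a log2 fold change of -0.01. COX4I1 and COX7A2 had -0.34 and -0.25, and neither passed. NDUFA4, listed here under complex I by its name but now placed with complex IV, had 0.32 (adjusted p = 0.253, limma). COX4I2, COX6A1, COX6A2, COX7A1 and COX7A2L had no SE event in the tables. NDUFA4L2 had no value because its 1 SE event was not listed for all 3 comparisons.

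The ring of ATP synthase that turns with the proton flow is built from a protein encoded by 3 genes, ATP5G1, ATP5G2 and ATP5G3, which differ in the import signal that is cut off. ATP5G2 had 6258, 7023 and 6124 scaled reads in EPI control and 10997, 10474 and 10399.6 in MES control. Its log2 fold change was 0.72 ± 0.24 (SE, adjusted p = 0.0475, limma). ATP5G1 had 0.13 (adjusted p = 0.73) and ATP5G3 had -0.31 (adjusted p = 0.219), so the 3 genes did not move alike in their point values, and the differences between them were not tested. ATP5G2 lost the call with each library left out in turn, with adjusted p up to 0.13. The catalytic subunit genes ATP5A1 and ATP5B had log2 fold changes of -0.12 and -0.18, and NDUFS1, NDUFV1 and UQCRC1 had -0.09, -0.14 and -0.33. None of these 5 passed the test.

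Of the 14 calls 6 held under all 13 settings that kept the same threshold of adjusted p alone: COX17, COX6B2, NDUFAB1, NDUFAF2, NDUFAF6 and NDUFS4. UQCRC2 held under 12. With the first or the second EPI control left out 7 members passed in place of 14, and with any MES control left out 8 did. The calls over all genes fell too, from 1043 higher and 1112 lower. They were 645 and 744 without the first EPI control and 777 and 790 without the second. With each MES control left out in turn they were 648 and 758, 605 and 747, and 987 and 1012.

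**Figure D2:**
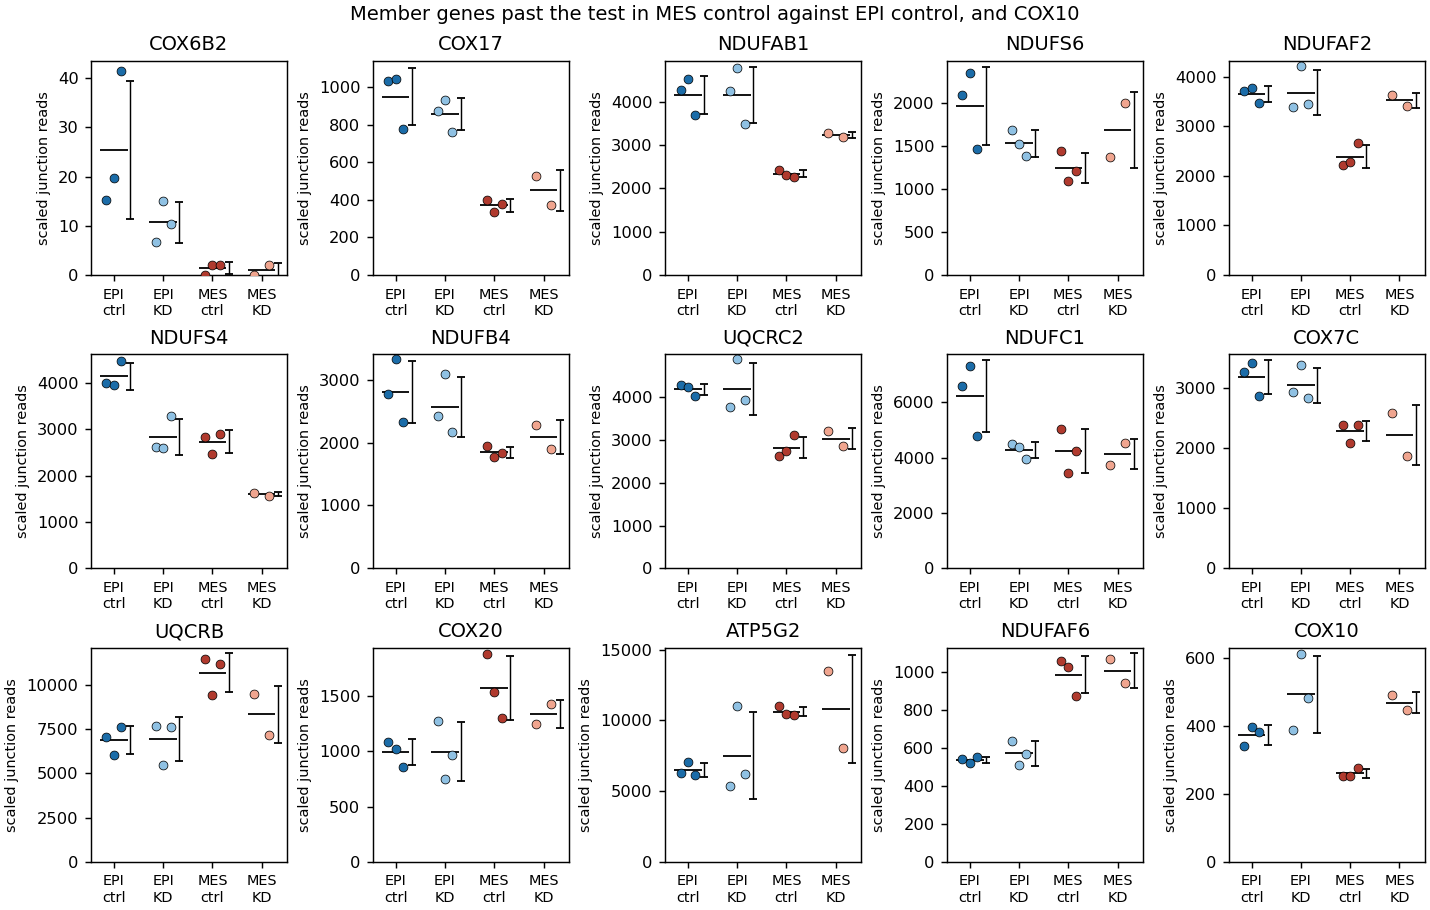
Scaled junction reads (linear axis from 0) of the 14 members past the test in MES control against EPI control, and of COX10, in each library. Points are libraries, the line is the group mean and the bar beside it the SD (n = 3, and 2 for MES knockdown). COX17 reads 333 to 399 in MES control against 775 to 1040.01 in EPI control.

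In EPI knockdown against EPI control, which asks what AKAP8 depletion does in epithelial cells, none of the 72 members passed the limma test, beside 0.255% of all genes. At an unadjusted p under 0.05 there were 3 members and 890 genes in all. The member median was -0.003, with 35 genes positive. Without the second EPI knockdown library it was -0.13, with 15 of 72 positive. The 5 lowest p-values were those of NDUFS4 (-0.55), NDUFC1 (-0.52), UQCR11 (-0.60), COX10 (0.38) and NDUFS6 (-0.34), with adjusted p from 0.145 to 0.668 (limma). In NDUFC1, NDUFS4 and COX6B2 the EPI knockdown libraries all lay below the EPI control libraries, and in ATP5O all lay above. In the rest of the 72 members the groups overlapped. ATP5A1, ATP5B, NDUFS1 and NDUFV1 had log2 fold changes of -0.02, -0.05, -0.08 and -0.05. UQCRC1 had 4046 scaled reads in the second EPI knockdown library and 1893 and 1769 in the others, and its log2 fold change of 0.28 went to -0.10 without that library. COX4I1 and COX6B1 had 0.05 and 0.11, and COX7A2 and NDUFA4 had -0.05 and 0.04. ATP5G1, ATP5G2 and ATP5G3 had 0.26, 0.14 and -0.00. COX6B2 had -1.11 on very few reads.

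In MES knockdown against MES control 1 member was higher and 1 lower, beside 2.06% and 2.1% of all genes. The lower gene was NDUFS4. The higher gene was COX10, which farnesylates heme on the way to heme a for complex IV. It had 253, 252 and 275 scaled reads in MES control and 489.7 and 447 in MES knockdown. These do not overlap, which was also so for members that did not pass, such as COX14 and COX4I1. Its log2 fold change was 0.85 ± 0.21 (SE, adjusted p = 0.0401, limma). In EPI it had 339.6, 397 and 382 in control and 386, 611 and 482 in knockdown, which overlap. COX10 passed under 7 of 12 settings, with adjusted p from 0.0232 to 0.214, and under none that left out a library of its 2 groups.

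The member median in MES knockdown was 0.10 against -0.01 for all genes, with 49 of 72 positive. On the scale of total junction reads it was -0.02 against -0.14, so members stayed 0.12 above all genes while their sign changed. Without the first MES knockdown library the median was 0.02, and without the second it was 0.27. Next in p-value after NDUFAF2 and NDUFAB1 came COX7B, a complex IV subunit, at -0.46 (adjusted p = 0.14, limma). COX4I1 had 0.44, COX6B1 -0.30, COX6B2 -0.29, COX7A2 0.09 and NDUFA4 0.10. ATP5A1 and ATP5B had 0.06 and 0.08. ATP5G1, ATP5G2 and ATP5G3 had -0.09, -0.02 and 0.02. NDUFS1 had -0.29, NDUFV1 -0.03 and UQCRC1 0.30. None of these passed.

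The member median of the difference in knockdown effect was 0.09 against -0.01 for all genes. It was -0.01 with total junction reads as the scale, where all genes had -0.11, and it was -0.003 without the first MES knockdown library and 0.29 without the second EPI knockdown library. No member passed the limma test of whether the knockdown effect differed between MES and EPI, beside 0.0111% of all genes. At an unadjusted p under 0.05 there were 5 members and 590 genes in all. The lowest p-values were those of NDUFAF2 (0.56), NDUFS3 (1.61), NDUFS6 (0.76), UQCR11 (0.90) and NDUFAB1 (0.47), all positive, with adjusted p from 0.678 to 0.753 (limma). NDUFS3, a core subunit of complex I, varied widely within groups, with 385 to 861 scaled reads in EPI control and 372 and 931 in MES knockdown.

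**Figure D3:**
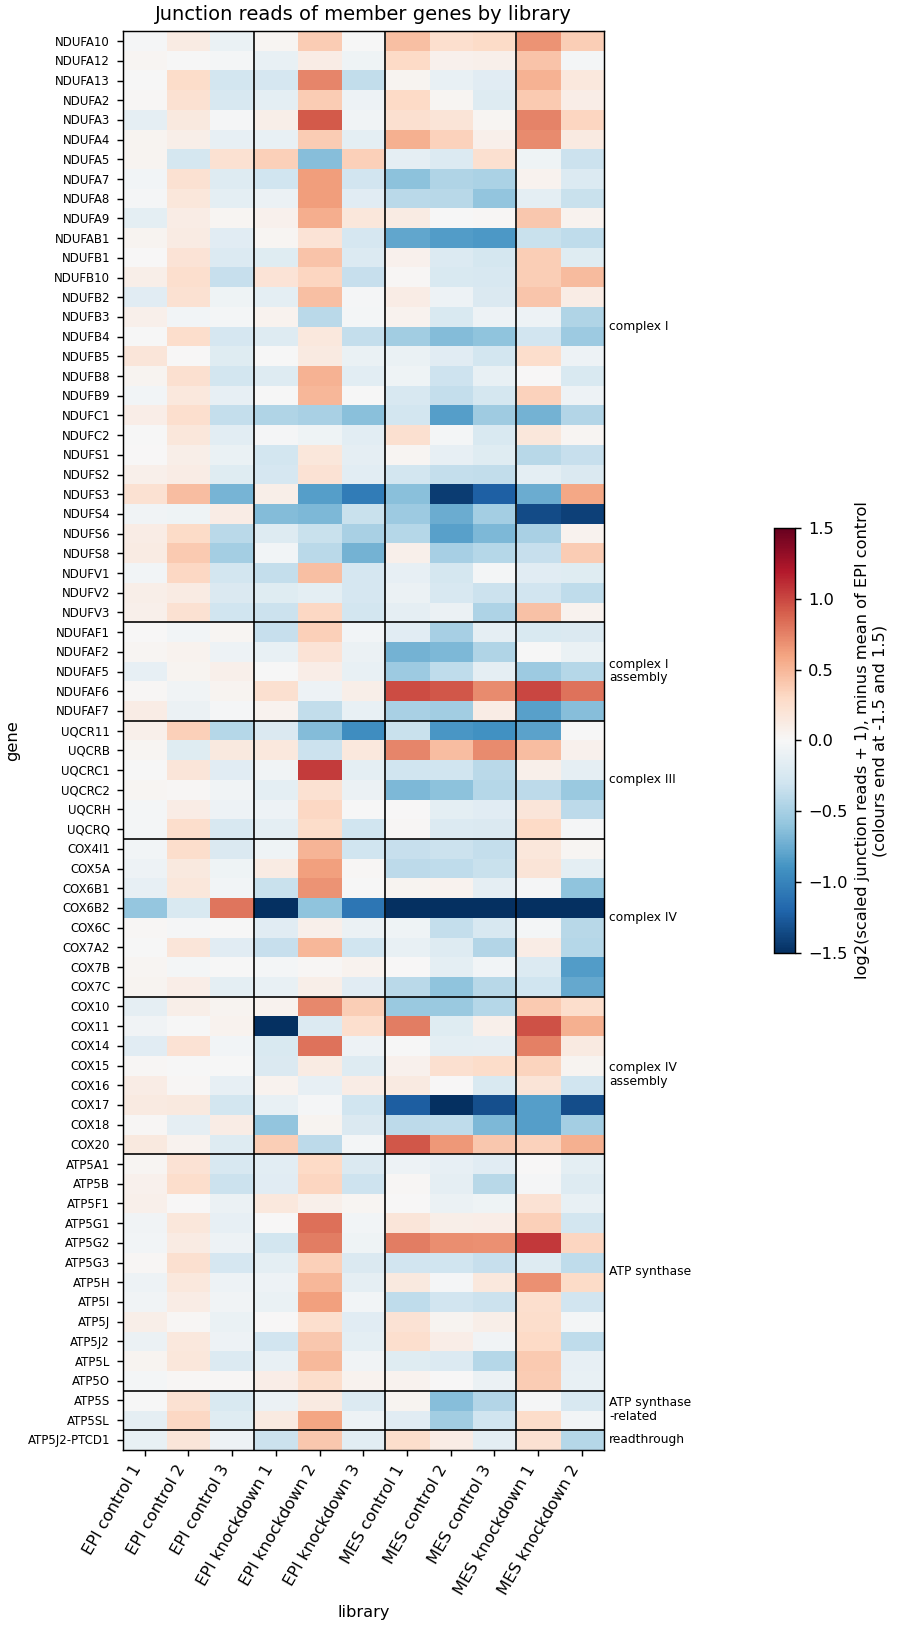
Log2(scaled junction reads + 1) of the 72 members tested, minus the mean of the 3 EPI control libraries, by gene (rows, grouped by complex) and library (columns). Colours end at -1.5 and 1.5. COX17 and NDUFAB1 are low and NDUFAF6 high in all 3 MES control libraries, and the second EPI knockdown library is raised across most rows.

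Splicing was measured as PSI, the percent of transcripts that include an exon, from the junction reads of each event. A quasi-binomial test with dispersion moderated over all events was used, and an event was called at an adjusted p under 0.05 with a PSI difference of at least 10 points. The 15 tables held 537 distinct events of members, of which 391 were SE, 100 were mutually exclusive exons (MXE), 24 alternative 5′ splice sites (A5SS), 12 retained introns (RI) and 10 alternative 3′ splice sites (A3SS). Most SE events, of members and of all genes, had a PSI near 100%. In the comparison of the states, 231 of the 283 member SE events tested (81.6%) had a PSI over 95% in both groups, against 75.5% of all SE events. Between 10% and 90% in both lay 11 (3.9%), against 7.7%. An exon can stand in several events with other neighbouring exons, so these are shares of events and not of exons. The median number of junction reads was 1066 for member events against 216 for all, so the members were also more deeply covered. The median PSI difference was 0.161 points against 0.684.

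In MES control against EPI control 3 of the 387 member events tested were called, beside 1.52% of all events. They were the exons of ATP5SL, COX20 and NDUFV3 shown above. Limma on the logit of PSI called none of the 3, with 247 events called over all genes and 5 member events at an unadjusted p under 0.05. Without the third EPI control library 5 were called.

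The ATP5SL exon was included in 65.0%, 65.0% and 68.4% of transcripts in EPI control and in 45.1%, 33.7% and 42.7% in MES control. The groups did not overlap, and the difference was -25.6 points (adjusted p = 2.56e-05, quasi-binomial test). In EPI knockdown it was 57.6%, 59.5% and 50.9%, below every EPI control library, a difference of -10.1 points that did not pass (unadjusted p = 0.0461 by the quasi-binomial test, adjusted p = 0.761). In MES knockdown it was 38.3% and 47.5%, which overlaps the MES control values. These PSI values rest on 226 to 439 junction reads per library. The total of junction reads of ATP5SL itself had a log2 fold change of -0.33 between the states (adjusted p = 0.255, limma).

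The COX20 exon was included in 90.1%, 89.5% and 89.9% of transcripts in EPI control and in 73.4%, 76.7% and 76.6% in MES control. The difference was -14.3 points (adjusted p = 4.68e-05, quasi-binomial test), on 398 to 1114 reads per library. With PSI as the plain share of inclusion reads the difference fell under the 10-point cutoff and the call was lost. EPI knockdown was more spread, at 86.2%, 92.7% and 85.2%, and MES knockdown had 75.3% and 72.7%. Neither knockdown group was apart from its control. Other COX20 events with the same exon but other neighbouring exons stayed between 98.5% and 100%. COX20 was the only gene of the 3 whose total of junction reads also passed the gene-level test, in the upward direction.

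The NDUFV3 exon moved the other way. It was included in 26.9%, 25.2% and 28.2% of transcripts in EPI control and in 40.8%, 40.3% and 46.8% in MES control. The difference was 15.9 points (adjusted p = 0.00086, quasi-binomial test), on 406 to 749 reads per library. In MES knockdown it was 27.6% and 36.4%, below every MES control library, with a difference of -8.54 points against the pair of MES controls in that table that did not pass (unadjusted p = 0.0296 by the quasi-binomial test, adjusted p = 0.812). How many events were separated from their control in this way was not counted. In EPI knockdown the inclusion of the NDUFV3 exon was 26.8%, 15.6% and 28.3%, and the second library lay outside the range of all others. The gene level of NDUFV3 had a log2 fold change of -0.23 between the states (adjusted p = 0.462, limma).

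With no PSI cutoff 16 of the 387 member events passed in the comparison of the states, beside 2.53% of all events. The exon of NDUFS1 had the lowest p-value of them. It was included in 97.6%, 98.3% and 98.0% of transcripts in EPI control and in 89.9%, 87.0% and 93.5% in MES control, a difference of -7.79 points (adjusted p = 1.11e-05, quasi-binomial test). Inclusion was 94.5%, 99.8% and 96.9% in EPI knockdown and 92.5% and 93.7% in MES knockdown. Another event of the same exon with another neighbouring exon had 97.3%, 98.3% and 98.99% in EPI control and 100%, 98.4% and 97.7% in MES control. An MXE event of NDUFS6 differed by -7.99 points (adjusted p = 0.0029, quasi-binomial test). Other exons passed with differences of about a point or less, among them those of UQCRQ (-0.951 points) and ATP5B (-0.968 points), and ATP5I differed by -2.22 points.

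**Figure D4:**
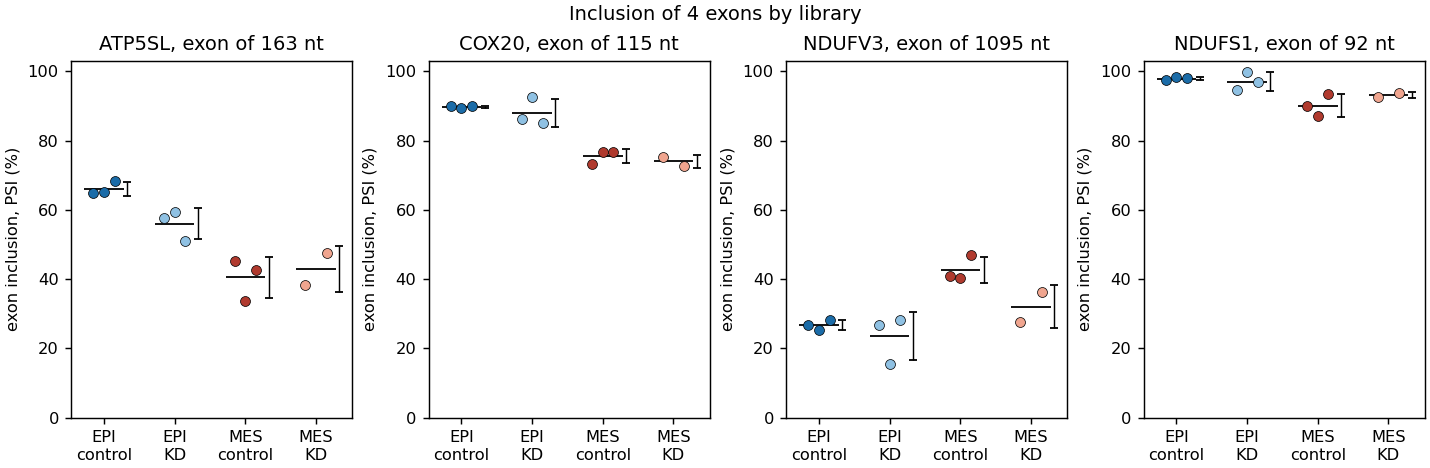
Inclusion (PSI, percent) of the ATP5SL, COX20, NDUFV3 and NDUFS1 exons in each library. Points are libraries, the line is the group mean and the bar the SD (n = 3, and 2 for MES knockdown). The ATP5SL exon goes from 65.0 to 68.4% in EPI control to 33.7 to 45.1% in MES control, and the NDUFV3 exon from 25.2 to 28.2% to 40.3 to 46.8%.

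No member event passed the test in either knockdown, where few events of any gene did, so this does not set the members apart. In EPI knockdown 0 of 396 member events were called, beside 0.0446% of all events (29 of 65008). In MES knockdown it was 0 of 375, beside 0.0506% (30 of 59288). At an unadjusted p under 0.05 with the 10-point cutoff there were 2 member events in EPI, of 599 in all, and 0 in MES, of 684 in all. Limma on the logit of PSI called 0 events of any gene in either knockdown, with 0 and 1 member events at an unadjusted p under 0.05. In EPI the events of lowest p with a difference of at least 5 points were an NDUFA10 MXE event (-6.4 points), an NDUFS8 exon (-9.85 points), a noncoding COX6B2 exon (-20.1 points, on 7 to 32 reads per library in these groups), the ATP5SL exon and an NDUFAF6 exon (-6.51 points), with adjusted p from 0.734 to 0.761 (quasi-binomial test). The NDUFS8 exon was included in 96.3%, 96.4% and 95.2% of transcripts in EPI control and 87.1%, 82.4% and 88.7% in EPI knockdown, which do not overlap, on an average of 108 junction reads per library. In MES control it was 87.0%, 82.0% and 90.9%. In MES they were MXE events of NDUFV2 (-5.3 points), NDUFA10 (-6.44 points) and NDUFAF7 (-14.1 points), the NDUFV3 exon and a COX10 exon (-5.53 points), with adjusted p from 0.812 to 1 (quasi-binomial test). With the first MES knockdown library left out, 3 MXE events were called in MES, 1 in NDUFS8 (17.2 points) and 2 in COX5A (10.3 and 11.3 points). That fit has a single knockdown library, assumed to vary like the others, and it called 215 of 9888 MXE events of all genes in place of 1 of 9877.

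Intermediate inclusion was rare among the SE events of members but common among their MXE events. Between the states 41 of 66 member MXE events (62.1%) lay between 10% and 90% in both control groups, against 72.9% of all MXE events. For RI events it was 4 of 11 (36.4%) against 32.4%. Between 10% and 90% in every library except the third MES control, with at least 100 reads on average, were 32 events of 22 genes. Of these 24 were MXE. The third MES control was left out of the counts of 32 and 24, of the order by nearness to 50% and of the ranges below. For MXE events the value is the share of reads that go to one of a pair of exons, and for 56 of the 66 member MXE events tested between the states both exons had an inclusion over 90% in SE events of the same genes. By nearness to 50% the first 12 genes were NDUFA10, NDUFA7, NDUFS1, ATP5SL, COX6C, NDUFB5, ATP5O, COX5A, COX10, ATP5F1, UQCRH and NDUFAF7, and only ATP5SL was there by an SE event. The ATP5O value stayed within 42.4% to 45.6% over these libraries, and the NDUFAF7 value ranged from 29.8% to 54.3%. Outside the MXE class, an intron of ATP5D was retained at 23.99% to 50.9% and a 4 nt extension of NDUFS5 was used at 22.0% to 27.0%.

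AKAP8 eCLIP peaks were few in member genes. With the log2 of IP over input at 2 or more and the -log10 adjusted p at 3 or more, 8 of 82 members (9.8%) held a peak within their span in EPI and 1 (1.2%) in MES, against 20.2% and 12.4% of all genes with a gene value. Members are short, with a median span of 14.5 kb against 39.99 kb, so fewer peaks can fall in them. Of the 39 EPI peaks placed in the span of COX19, 37 lie also in ADAP1, and the peak in COX16 lies also in SYNJ2BP. Where no other protein-coding gene lay under the peak, 6 members held 14 peaks in EPI, 12 of them in introns. NDUFA10, a complex I subunit, held 8 of these, and all 3 MES peaks. Some listed peaks overlap each other almost fully, so the peak counts given here are entries and not separate binding sites. In EPI a peak at chr2:240956351-240956421 had a log2 enrichment of 4.15, and in MES a peak at chr2:240956330-240956429 had 3.135. They lay in the same intron, 846 and 853 nt from the nearest exon with an SE event. The other members were NDUFAF6, NDUFB2, NDUFS6 and UQCRC1 with 1 peak each, beside COX19. No peak lay within 300 nt of an SE exon of a member, which includes the 4 exons shown above. The peak lists pool the replicates of a state, so the difference between EPI and MES has no replicate check.

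Other genes of energy metabolism were counted from lists set beside the members. Of the genes of complex II, cytochrome c (CYCS) and cytochrome c1 (CYC1, a complex III subunit outside the naming rule) 6 of 6 had negative values between the states (median -0.21), with none past the test, and in MES knockdown SDHA, the catalytic subunit of complex II, was lower (log2 fold change -1.15, adjusted p = 0.0191, limma). Of 20 other assembly factors tested SDHAF2 was higher in MES (0.90) and ECSIT, a complex I assembly factor, lower (-1.05), and ECSIT was higher in MES knockdown (1.28, adjusted p = 0.0111, limma). Of 9 regulators of mitochondrial biogenesis ESRRA (-1.20) and POLRMT (-0.85) were lower in MES and none passed the test in either knockdown. Of 12 citrate cycle genes none passed between the states, and SUCLG2 was lower in MES knockdown (-0.87). None of the genes of these lists or of glycolysis passed in EPI knockdown. Of 15 glycolysis genes 6 were lower in MES control (median -0.34, 14 of 15 negative) and 3 in MES knockdown (median -0.39, 14 of 15 negative), with none higher. LDHA, which makes lactate, and ALDOC passed in both comparisons, with log2 fold changes of -0.57 and -1.32 between the states and -0.77 and -1.44 in MES knockdown. Over all genes tested the corresponding medians were 0.01 and -0.01. No difference between these lists and the members was tested.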

How the data were processed

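RNA-seq libraries were stranded, poly(A)-selected and paired-end. The authors aligned reads with STAR, kept unique alignments (GRCh37, Gencode v24) and ran rMATS. They deposited, per comparison and event type, junction read counts for inclusion and for skipping of every event, with the libraries of a group in a single field. The third MES control stands only in the tables of the 2 control groups. For eCLIP the authors deposited peaks merged over replicates, as log2 of IP over input and -log10 adjusted p. The authors' own fold changes and p-values were not used, and 30 per-sample columns were left unused.

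The members, lists and tests were chosen with earlier results of these data known. Per gene, counts were added over the SE events found in each of the 3 comparisons and scaled with size factors (median of ratios). Genes reaching 10 in 2 or more of the 11 libraries were tested with limma 3.58.1 (R 4.3.3, trend) on log2(value + 1), in a single fit of the 4 groups, with Benjamini-Hochberg adjustment over all 9016 genes. A fold change on this scale understates low genes. Events averaging 20 or more reads in a library entered a quasi-binomial F test, with adjustment within event type. Tests were checked on simulated data. Peaks were kept at log2 of at least 2 and -log10 adjusted p of at least 3 and placed on Gencode v44lift37.

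Named genes were the members past the test (at most 12 by p, or the 5 of lowest p), fixed paralogs and core subunits. Named events were those called, the 5 of lowest p with at least 5 points, and 12 genes of intermediate PSI. Alternatives changed the scale, filter, pseudocount, libraries, event test and cutoffs.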

Additional observations from a re-analysis of the deposited data

How the results depend on the processing

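At the gene level, fitting only the groups compared gave 5 calls among 71 members in MES knockdown, in place of 2 among 72. Over all genes that fit called 448 higher and 493 lower of 8862, in place of 186 and 189 of 9016. With a log2 fold over 1 also needed, 0 members passed in MES knockdown, beside 99 higher and 106 lower of all genes. Between the states 2 members did, beside 486 and 645 of all genes. For events between the states, limma on the logit of PSI called 0 and no PSI cutoff gave 16. No peak within 300 nt of an SE exon left 0 members in EPI and 0 in MES. With a library left out, member calls ranged from 0 to 0 in EPI knockdown, 0 to 1 in MES knockdown, 7 to 14 between the states and 0 to 0 for the difference of effects. Member medians ranged from -0.1282 to 0.066, 0.0174 to 0.2739, -0.2734 to -0.0973 and -0.0025 to 0.2903 in that order. Member events ranged from 0 to 0, 0 to 3 and 3 to 5.

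The labels number the replicates, but the tables name no library, so the numbers could not be tied to libraries. Deviations from the group means over all genes correlated at 0.281, 0.58 and 0.493 between EPI control and EPI knockdown libraries of the same place in the lists, 0.173 and 0.022 between the MES groups, and 0.079 to 0.265 between the control groups. Place in the list as a replicate block, chosen after seeing the data and fitted to genes alone, gave 0, 2, 18 and 0 member calls and medians of -0.003, 0.08, -0.17 and 0.05. Between the states the block called 1308 higher and 1363 lower of 9016 genes, in place of 1043 and 1112.

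Signs that turned were all of log2 fold changes that did not pass. In EPI knockdown the SE event with most reads gave 0.066 for ATP5A1 and 0.004 for ATP5B. In MES knockdown total reads as scale gave -0.035 for COX7A2, -0.022 for NDUFA4, -0.103 for ATP5G3, -0.067 for ATP5A1 and -0.045 for ATP5B. The block gave -0.013 for COX7A2, -0.064 for ATP5G3, -0.024 for ATP5A1 and -0.059 for ATP5B, and the SE event with most reads 0.018 for ATP5G2 and 0.023 for NDUFV1. The cause was not tested.

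With a library left out, EPI knockdown values ranged from -0.184 to 0.084 for ATP5A1, -0.235 to 0.083 for ATP5B, -0.021 to 0.411 for ATP5G1, -0.169 to 0.355 for ATP5G2, -0.182 to 0.116 for ATP5G3, -0.181 to 0.221 for COX4I1, -0.172 to 0.332 for COX6B1, -0.325 to 0.098 for COX7A2, -0.13 to 0.133 for NDUFA4, -0.207 to 0.017 for NDUFS1, -0.304 to 0.102 for NDUFV1 and -0.097 to 0.5 for UQCRC1. MES knockdown values ranged from -0.017 to 0.129 for ATP5A1, -0.042 to 0.177 for ATP5B, -0.406 to 0.231 for ATP5G1, -0.395 to 0.346 for ATP5G2, -0.076 to 0.117 for ATP5G3, -1.08 to 0.504 for COX6B2, -0.183 to 0.361 for COX7A2, -0.191 to 0.394 for NDUFA4 and -0.096 to 0.021 for NDUFV1, and from -11.1 to 0 points for the COX10 exon. Between the states they ranged from -0.077 to 0.07 for COX6B1 and -0.276 to 0.016 for NDUFV1. Low reads limit COX6B2.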
